A study of Mus musculus with 12 samples.

Results

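The 48 genes described here encode the machinery of DNA replication and cell division. They were taken from a fixed list of gene symbols, and all 48 were found among the 52636 genes of both deposited count tables. The list covers 9 genes for the licensing and unwinding of replication origins and 6 for the replication fork and its nucleotide supply. It also holds 7 genes for cyclins and Cdk1, and 10 mitotic kinases, checkpoint genes and genes that act with the anaphase-promoting complex. The remaining genes are 13 spindle, kinetochore and cytokinesis genes and 3 genes of chromosome structure. RNA was sequenced from bone marrow cells of wild-type C57BL/6J mice aged 8 to 12 weeks, in 4 groups of 3 libraries each. Neutrophils were obtained with an enrichment kit and treated for 4 h with PBS (saline) or with 1 nM calcitonin gene-related peptide (CGRP), a neuropeptide released by pain-sensing nerve endings. Monocytes were obtained with an isolation kit, kept in medium with M-CSF at 10 ng/ml over 3 days, and then given PBS or 1 nM CGRP for 4 h; these cells are called macrophages here, and monocytes/macrophages in the sample labels. The labels do not say whether the replicates came from separate mice or cultures, so the p-values measure the spread between these libraries, which may be technical.

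A cell that divides first loads the MCM helicase onto its replication origins, then copies its DNA in S phase with the help of the Pcna clamp and a supply of nucleotides, and finally separates the chromosomes in mitosis. Cyclins with their kinases drive S phase and mitosis, whereas origins are loaded while these kinases are inactive. Many S phase genes are transcribed under E2F factors, and many mitotic genes through CHR and CCAAT elements in their promoters. In bone marrow, neutrophil precursors divide whereas mature neutrophils do not, and M-CSF is a growth factor for monocytes and macrophages.

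Each library held between 2002559 and 3631989 counts. The third replicate had the lowest total in each of the 4 groups, and the third macrophage library with CGRP was the lowest of the 12. A count of 3, taken as the limit of detection, corresponded to 0.826 to 1.5 CPM, the count scaled to a common library total, before TMM scaling. Such limits cover counting error only. Levels are given in CPM after TMM scaling over the 12 libraries, as mean ± SD (n = 3), and fold changes come from limma-voom with Benjamini-Hochberg adjustment over all genes tested.

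The labelled cell types were checked against marker genes. The macrophage libraries with PBS held 10871, 9989 and 8748 counts of Cd68, a lysosomal macrophage marker, and 2164 to 2654 counts of Csf1r, the M-CSF receptor, whereas Ly6g, a neutrophil surface marker, had 0 to 3 counts in each of the 6 macrophage libraries. The neutrophil libraries with PBS held 1964 to 3369 counts of Ly6g. They also held RNA of other bone marrow cells, including 3989 to 5581 counts of Elane, a granule protein gene of neutrophil precursors, 9256 to 14255 counts of the haemoglobin gene Hbb-bs, 115 to 146 counts of the B cell precursor gene Vpreb3 and 78 to 82 counts of Myb, a progenitor gene. In these bulk samples, fewer cells of a type and less RNA per cell cannot be told apart.

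In macrophages, CGRP was accompanied by lower levels of cell cycle genes. Of the 48 genes, 46 had enough counts to be tested. The adjusted p was under 0.05 for 12 of the 46, and all 12 were lower with CGRP, by 0.55 to 1.59 on the log2 scale. Among all 9393 genes tested in macrophages, 7.43% passed the same threshold, 3.97% lower and 3.46% higher, against 26.1% of the cell cycle genes. Of the 46, 45 had a log2 fold change below 0, as did 49.3% of all genes tested, and Ccnf, which encodes an F-box protein, was the exception (8.86, 6.87 and 5.73 CPM with PBS, 9.06, 10.3 and 8.02 CPM with CGRP). The median log2 fold change of the 46 was -0.75, beside 0.0047 over all genes tested. The count of 12 rose to 22 in a single fit of 12 libraries, 29 with the replicate number as a block and 30 with library quality weights, beside 9.82%, 10.7% and 15% of all genes. The CGRP libraries lay below all PBS libraries, without overlap, for 26 of the 46, or 56.5%, against 12.5% of all genes tested, and above them for 0, against 11.6%. Since a gene can pass the filter on low counts through its PBS libraries alone, the comparison was repeated with a minimum of 10 counts in each macrophage library. It then held 33 of the cell cycle genes, of which 11 passed, all lower, against 7.63% of all genes tested, and the median of the 33 was -0.61.

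Summed over the 48 genes, the level in macrophages was 1274, 1232 and 976 CPM with PBS and 844, 660 and 582 CPM with CGRP. The groups did not overlap, and the mean fell from 1161 ± 161 to 695 ± 135 CPM, a difference of 40.1%. The lowest sum of each group was that of the third replicate, which also had the lowest total count. The share of mitochondrial counts also differed between these libraries without overlap, at 1.44 to 1.57% with PBS and 1.23 to 1.38% with CGRP, and its part in the result was not tested. In neutrophils the sum was 5084, 5258 and 4810 CPM with PBS and 4828, 4764 and 4553 CPM with CGRP, so that the groups overlapped. The neutrophil means were 5051 ± 226 and 4715 ± 144 CPM, a difference of 6.64%. This difference depended on the scaling. Before TMM scaling the neutrophil sums were 4933, 4735 and 4930 CPM with PBS and 4561, 4991 and 4751 CPM with CGRP, with the second CGRP library the highest. By role, the neutrophil sums with CGRP lay below those of all PBS libraries for the licensing genes (604 to 641 against 551 to 603 CPM), the mitotic kinases (918 to 992 against 877 to 905 CPM) and the chromosome structure genes (1060 to 1221 against 969 to 1036 CPM), and overlapped for the other 3 groups. Before TMM scaling, the licensing (577 to 642 against 548 to 632 CPM) and mitotic kinase sums (893 to 941 against 855 to 921 CPM) overlapped too. The sum of the 10 macrophage markers in neutrophils was also lower with CGRP, without overlap (21531 to 26375 against 16604 to 20998 CPM). Lyz2 made up most of it, with 66055 of 72184 counts in the first PBS library. Of the 10 genes, 5 had a log2 fold change above 0 and 5 below (median 0.0096). The sum of the 6 T and NK cell markers was lower too, without overlap (114 to 130 against 83.5 to 109 CPM). Most of it was Nkg7, with 307 of 365 counts in the first PBS library, and 2 of the 6 genes were tested. The other marker sums overlapped after TMM scaling. Before it the 5 monocyte markers did not (3686 to 3863 CPM with PBS, 3066 to 3548 CPM with CGRP). Of these 5 genes, 4 had a log2 fold change below 0 and 1 above. The part of these cells was not tested.

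**Figure D1:**
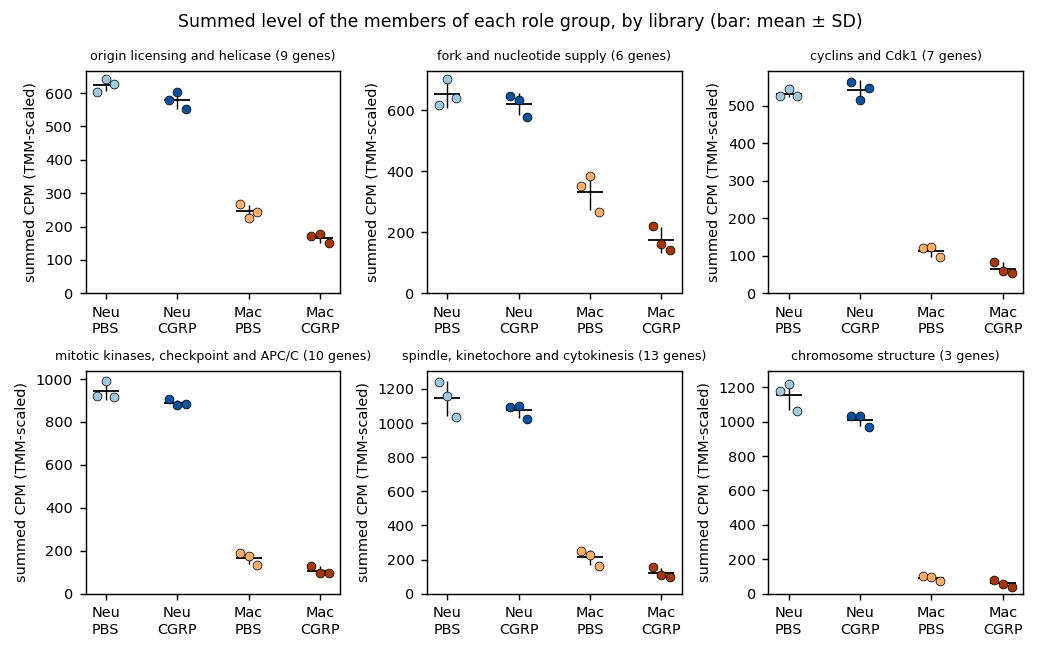
Summed CPM (y axis, TMM-scaled, from 0) of the genes of each role group in each of the 12 libraries, with points for libraries and bars for mean ± SD of the 3 replicates. In macrophages (Mac) the CGRP points lie below the PBS points in 5 of the role groups and reach them in the chromosome structure genes, and all macrophage points lie below those of neutrophils (Neu).

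The number of genes past the threshold depended on single libraries. Leaving out the first PBS, the second CGRP or the third CGRP library of macrophages left 2 of the 12 genes, Pcna and Ccna2, which passed in each of the 6 fits with 1 library fewer. In these 3 fits the share of called cell cycle genes, 4.44%, 4.26% and 4.26% of those tested, was close to that of all genes, 3.67%, 3.56% and 4.48%. Without PBS replicate 3, 16 genes passed, against 7.65% of all genes, and in all 6 fits every gene that passed was lower.

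Apart from the megakaryocyte gene Pf4, markers of other cell types were low in the macrophage libraries but not absent. The 9 early granulocyte markers summed to 66.6, 67.2 and 51.2 CPM with PBS and 68.1, 72.2 and 90.8 CPM with CGRP, led by Ngp at 96 to 157 counts. The 9 erythroid markers summed to 23.2, 23.3 and 20.4 CPM with PBS and 27.8, 19.5 and 24.1 CPM with CGRP, led by Hbb-bs at 25 to 44 counts, with Slc4a1 at 0. The 8 B cell markers summed to 32.9, 34.1 and 31.9 CPM with PBS and 38.1, 40.5 and 41.1 CPM with CGRP, nearly all of it Cd79b at 74 to 119 counts, with Cd79a and Vpreb3 at 0. The CGRP libraries were thus higher for the early granulocyte and B cell sums and overlapped the PBS libraries for the erythroid sum. Before TMM scaling the early granulocyte sums overlapped too (56.4 to 69 CPM with PBS, 66.9 to 90.4 CPM with CGRP). The 9 mature neutrophil markers summed to 279, 339 and 260 CPM with PBS and 396, 369 and 346 CPM with CGRP, led by S100a8, and the 5 dendritic cell markers to 15.2, 16.4 and 14 CPM and 20, 26.5 and 30.6 CPM, led by Ccr7. These too were higher in every CGRP library, as were the 6 mast cell, basophil and eosinophil markers, by 38.5% in the mean. The 5 megakaryocyte markers, nearly all Pf4, summed to 631, 973 and 676 CPM with PBS and 958, 780 and 629 CPM with CGRP, which overlapped. The 6 progenitor markers held 4 to 9 counts a library, with Myb at 0, and the 6 T and NK cell markers 1 to 3, too few to compare. The macrophage markers, led by Lyz2 or Apoe, had an 18.3% higher mean with CGRP. The 5 monocyte markers summed to 979, 1041 and 993 CPM with PBS and 1096, 1076 and 1160 CPM with CGRP, without overlap after TMM scaling but with overlap before it. Of these 5 the receptor gene Ccr2 fell (log2 fold change -0.81, adjusted p = 0.00048), and the other 4 had log2 fold changes above 0 and did not pass. The part of other cells in the result was not tested.

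**Figure D2:**
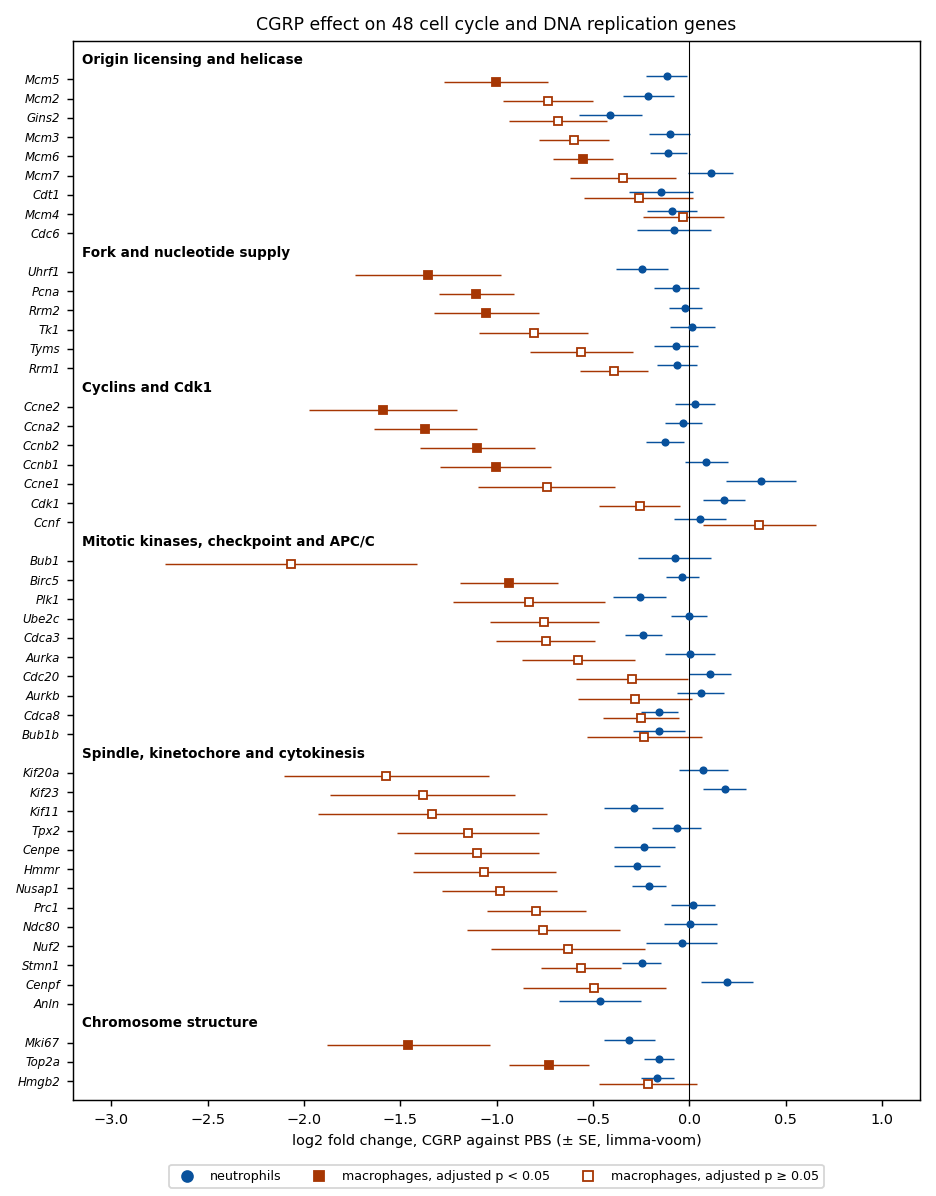
Log2 fold change with CGRP against PBS (x axis, ± SE, limma-voom) of the 48 genes, ordered by role, in neutrophils (circles) and macrophages (squares, filled where the adjusted p was under 0.05). The 12 filled squares lie between -1.59 and -0.55, no circle passed the threshold, and Cdc6 and Anln have no square because too few counts were present in macrophages.

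Sequences upstream of the start site are shown for 4 of the genes that fell in macrophages, to show where the promoter elements named above lie in 3 of them and are not found in Birc5. RefSeq promoters (mouse build GRCm38.p6) were present for 40 of the 48 genes; those of Stmn1, Aurkb, Mcm4, Ccne2, Gins2, Kif20a, Ccna2 and Tpx2 were not in the table used here. Mcm6 and Birc5 were chosen as the genes with the most counts in their role groups, and Ccnb2 and Top2a were added after their values were seen. Each line gives the 150 bases that end just before the RefSeq start, 5′ to 3′ on the strand of the gene, with capitals for the E2F letters (TTCCCGC and also TTCGCGC, or TTGCCGC and also TTGGCGC), the CHR letters (TTTGAA) and the NF-Y letters (CCAAT) on either strand, where neighbouring matches can run together.
Mcm6, chr1:128359706-128359855, minus strand: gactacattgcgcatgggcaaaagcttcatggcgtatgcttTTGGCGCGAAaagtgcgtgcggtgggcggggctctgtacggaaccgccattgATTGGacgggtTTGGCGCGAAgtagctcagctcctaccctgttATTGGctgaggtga
Ccnb2, chr9:70421555-70421704, minus strand: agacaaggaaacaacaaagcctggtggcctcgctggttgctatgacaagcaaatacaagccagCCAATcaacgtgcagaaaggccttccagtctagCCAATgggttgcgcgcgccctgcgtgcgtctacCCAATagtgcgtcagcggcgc
Birc5, chr11:117849087-117849236, plus strand: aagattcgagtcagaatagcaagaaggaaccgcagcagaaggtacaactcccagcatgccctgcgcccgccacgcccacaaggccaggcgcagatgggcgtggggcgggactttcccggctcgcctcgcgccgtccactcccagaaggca
Top2a, chr11:99024190-99024339, minus strand: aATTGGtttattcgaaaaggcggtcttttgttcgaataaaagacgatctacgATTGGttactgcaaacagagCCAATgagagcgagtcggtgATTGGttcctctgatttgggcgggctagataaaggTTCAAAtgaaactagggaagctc

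The Mcm6 stretch holds 4 matches to the E2F letters and 2 to the NF-Y letters, the Ccnb2 stretch 3 NF-Y matches, and the Top2a stretch 4 NF-Y matches and 1 CHR match. The Birc5 stretch holds none of these letters. Over the window from 250 bases before to 50 bases after the start, the E2F letters were present in 34.9% of the 43 promoters of the cell cycle genes against 9.57% of 32851 mouse promoters, the CHR letters in 51.2% against 17.9%, and the NF-Y letters in 76.7% against 37.4%. Within the list the E2F and CHR letters differed in share between the roles of the genes, while the NF-Y letters were present in 63.6% to 88.9% of the promoters of the 5 larger groups. The E2F letters were present in 87.5% of the origin licensing promoters and 57.1% of the fork and nucleotide promoters, but in 0% of the mitotic kinase promoters and 9.09% of the spindle promoters. The CHR letters showed the reverse, with 12.5% and 0% of the licensing and fork promoters and 77.8% and 72.7% of the mitotic kinase and spindle promoters. For 10 of the 12 genes past the threshold in macrophages 11 promoters were present. Of these, 63.6% held the E2F letters, 27.3% the CHR letters and 90.9% the NF-Y letters. Of the 32 promoters of the remaining genes 25%, 59.4% and 71.9% did. Most of the remaining genes also had a log2 fold change below 0 in macrophages. The 2 sets differ in the roles of their genes as well, and the contrast was not tested. A match is a description of the sequence and was not tested for binding.

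Of the 8 origin licensing and helicase genes tested in macrophages, 2 fell, Mcm5 and Mcm6, and all 8 had a log2 fold change below 0 (median -0.57). Mcm5 (ENSMUSG00000005410, chr8:75109569-75128439, plus strand), a helicase subunit, stood at 32.3, 24.2 and 20.4 CPM with PBS and 17.2, 11.4 and 9.03 CPM with CGRP, or 113, 81 and 57 against 55, 31 and 18 counts. The groups did not overlap, and the log2 fold change was -1.0 ± 0.27 (SE, adjusted p = 0.0321). Mcm6 (ENSMUSG00000026355, chr1:128331590-128359664, minus strand), another helicase subunit, stood at 63.2, 58.5 and 54.1 CPM with PBS and 39.4, 40.5 and 39.6 CPM with CGRP. It had the most counts of the group and the smallest change among the 12 genes, -0.55 ± 0.16 (adjusted p = 0.0417). Cdc6, which loads the helicase at origins, was too low to be tested, with 23, 10 and 9 counts with PBS and 3, 1 and 3 counts with CGRP. In neutrophils Mcm5 was at 92.3 ± 8.05 CPM with PBS and 84.2 ± 3.37 CPM with CGRP, and Mcm6 at 128 ± 8.05 and 118 ± 8.46 CPM, and the groups of both genes overlapped.

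Among the genes of the replication fork and nucleotide supply, 3 of 6 fell in macrophages. Pcna (ENSMUSG00000027342, chr2:132249162-132253314, minus strand), the sliding clamp that holds DNA polymerase on its template, was at 210, 237 and 153 CPM with PBS and at 120, 87.3 and 69.7 CPM with CGRP. The highest CGRP library lay below the lowest PBS library, and the log2 fold change was -1.11 ± 0.20 (adjusted p = 0.00178), the lowest adjusted p of the 46 genes. In neutrophils Pcna was at 90.3, 100 and 82.5 CPM with PBS and 98.7, 85.8 and 73.3 CPM with CGRP, which overlapped. Uhrf1 (ENSMUSG00000001228, chr17:56303321-56323486, plus strand), which guides the copying of DNA methylation, had 30, 23 and 21 counts with PBS and 7, 10 and 6 counts with CGRP in macrophages (log2 fold change -1.35 ± 0.38, adjusted p = 0.0381). Its counts were low and it passed in none of the 6 fits with 1 library fewer. Rrm2 (ENSMUSG00000020649, chr12:24708241-24714146, plus strand), the regulated subunit of ribonucleotide reductase, was at 22.6, 31.4 and 19.3 CPM with PBS and 15, 8.47 and 11.5 CPM with CGRP. These groups did not overlap (log2 fold change -1.05 ± 0.27, adjusted p = 0.0262), while in neutrophils Rrm2 was at 224 ± 13.4 and 219 ± 6.15 CPM. Rrm1, Tyms and Tk1, which also serve nucleotide synthesis, had log2 fold changes of -0.39, -0.56 and -0.81 in macrophages with adjusted p of 0.05 or more.

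Of the 7 genes for cyclins and Cdk1, 4 were lower in macrophages, or 57.1%, against 7.43% of all genes tested. Ccna2 (ENSMUSG00000027715, chr3:36564865-36572150, minus strand), the cyclin of S phase and G2, was at 21.2, 18.8 and 17.9 CPM with PBS and 9.06, 6.26 and 6.52 CPM with CGRP. All PBS libraries lay well above all CGRP libraries, and the log2 fold change was -1.37 ± 0.27 (adjusted p = 0.00391). Ccne2 (ENSMUSG00000028212, chr4:11191351-11204779, plus strand), a cyclin of the start of S phase, was at 18.3, 18.5 and 9.67 CPM with PBS and 7.18, 3.31 and 4.51 CPM with CGRP. This was the largest change of the 12 genes, -1.59 ± 0.38 (adjusted p = 0.0170), on 9 to 64 counts a library, and the PBS libraries themselves differed. The mitotic cyclins that activate Cdk1 fell by similar amounts. Ccnb1 (ENSMUSG00000041431, chr13:100778650-100786570, minus strand) was at 20.3, 23.6 and 16.5 CPM with PBS and 14.4, 8.84 and 6.52 CPM with CGRP (log2 fold change -1.01 ± 0.29, adjusted p = 0.0429). Ccnb2 (ENSMUSG00000032218, chr9:70407692-70421547, minus strand) was at 17.2, 18.8 and 15 CPM with PBS and 11.9, 6.26 and 5.52 CPM with CGRP (log2 fold change -1.10 ± 0.30, adjusted p = 0.0336). For both, the groups did not overlap and the first CGRP library was the highest of its group. Cdk1 itself, the mitotic kinase, had a log2 fold change of -0.26 with an adjusted p of 0.554.

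In neutrophils none of these cyclins passed the threshold. Ccna2 was at 118, 114 and 115 CPM with PBS and at 122, 106 and 109 CPM with CGRP, and Ccne2 at 75.9, 79.5 and 75.7 CPM with PBS and 79.0, 73.8 and 82.9 CPM with CGRP. In both cases the groups overlapped. Ccnb1 was at 80.5 ± 2.89 CPM with PBS and 85.7 ± 11.4 CPM with CGRP, and Ccnb2 at 115 ± 5.59 and 105 ± 8.02 CPM. The 95% interval of the log2 fold change ran from -0.23 to 0.17 for Ccna2 and from -0.19 to 0.25 for Ccne2.

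**Figure D3:**
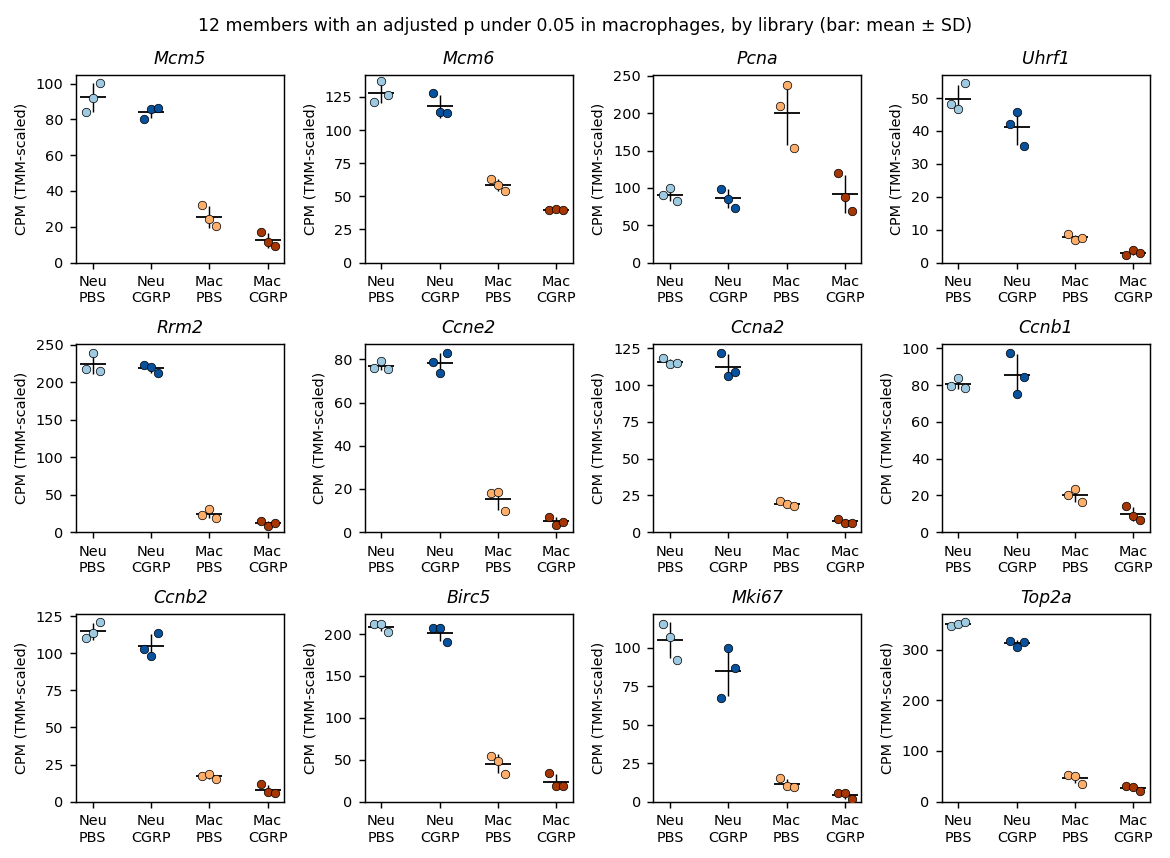
CPM (y axis, TMM-scaled, from 0) of the 12 genes with an adjusted p under 0.05 in macrophages, in each library of neutrophils (Neu) and macrophages (Mac) with PBS or CGRP, with bars for mean ± SD of 3 libraries. In macrophages the CGRP points lie below the PBS points for 11 genes and overlap them for Birc5, and Pcna alone is higher in macrophages with PBS than in neutrophils with PBS.

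Among the 10 mitotic kinases, checkpoint genes and genes that act with the anaphase-promoting complex, 1 passed the threshold in macrophages. This share of 10% is close to the 7.43% of all genes tested. All 10 had a log2 fold change below 0 (median -0.66). Birc5 (ENSMUSG00000017716, chr11:117849251-117855743, plus strand), also named survivin, a subunit of the chromosomal passenger complex, was at 54.6, 49.0 and 33.0 CPM with PBS and 34.0, 18.4 and 18.6 CPM with CGRP. It fell by 0.94 ± 0.25 on the log2 scale (adjusted p = 0.0337) although the third PBS library lay just below the first CGRP library. Bub1, a spindle checkpoint kinase, had the lowest log2 fold change of the 46 genes, -2.07 ± 0.66, but on 0 to 9 counts a CGRP library and with an adjusted p of 0.0703. For Bub1, macrophage fits passed with the replicate number as a block (adjusted p = 0.0186), with library quality weights (adjusted p = 0.0143) and in a single fit of 12 libraries (adjusted p = 0.0488), and gave -2.21 to -1.41 under other settings and -2.81 to -0.99 with 1 library fewer. In neutrophils Birc5 was at 209 ± 5.6 CPM with PBS and 202 ± 9.97 CPM with CGRP.

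None of the 12 tested spindle, kinetochore and cytokinesis genes passed the threshold in macrophages, although their median log2 fold change, -1.02, was the lowest of the 6 role groups. All 12 were below 0, and 9 had an unadjusted p under 0.05. Over the 46 genes 29 did so, all lower, which is 63% against 10% of all genes tested, and 0 were higher at that level, against 9.77%. Cenpe, a kinetochore motor protein, came closest to the threshold, at 25.2, 12.2 and 13.6 CPM with PBS and 7.5, 7.37 and 7.52 CPM with CGRP (log2 fold change -1.10 ± 0.33, adjusted p = 0.0509), and it passed in 7 of 10 alternatives, with DESeq2 at an adjusted p of 0.0256 and with the replicate number as a block at 0.00132. Stmn1 (ENSMUSG00000028832, chr4:134468320-134473843, plus strand), a microtubule-destabilising protein and the gene of this group with the most counts, was at 83.8, 108 and 60.6 CPM with PBS and 68.7, 50.5 and 47.6 CPM with CGRP. Its groups overlapped, and the log2 fold change was -0.56 ± 0.21 (adjusted p = 0.125), but it passed with library quality weights (adjusted p = 0.0108) and with the replicate block (adjusted p = 0.0134). The standard errors were larger in this group (median 0.37) than over all 46 genes (0.29). Anln, a cytokinesis scaffold protein, was not tested, with 14, 6 and 3 counts with PBS and 8, 6 and 2 counts with CGRP.

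Of the 3 genes of chromosome structure, 2 fell in macrophages. Mki67 (ENSMUSG00000031004, chr7:135689784-135716361, minus strand), the proliferation marker Ki-67 that coats mitotic chromosomes, had 54, 34 and 27 counts with PBS and 18, 16 and 3 counts with CGRP in macrophages. The groups did not overlap, and the log2 fold change was -1.46 ± 0.42 (adjusted p = 0.0457). Top2a (ENSMUSG00000020914, chr11:98992943-99024189, minus strand), the topoisomerase that untangles replicated DNA, was at 52.3, 50.5 and 35.5 CPM with PBS and 31.9, 28.4 and 21.6 CPM with CGRP (log2 fold change -0.73 ± 0.21, adjusted p = 0.0432). Hmgb2 (ENSMUSG00000054717, chr8:57511907-57515999, plus strand), a chromatin protein, was at 32.3, 35.2 and 29.4 CPM with PBS and 44.0, 22.8 and 18.6 CPM with CGRP. The first CGRP library was above every PBS library and the other 2 were below, and the log2 fold change was -0.22 ± 0.25 (adjusted p = 0.705).

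In neutrophils none of the 48 genes passed the threshold with CGRP, and edgeR and DESeq2 likewise called 0. Among all 9819 genes tested in neutrophils, 2.53% did, 1.51% higher and 1.02% lower. All 48 genes were tested, with more counts than in macrophages for all but Pcna, and the median standard error was 0.12 on the log2 scale. Of the 48, 33, or 68.8%, had a log2 fold change below 0, against 49.8% of all genes tested, and the median was -0.073 beside 0.0008 over all genes tested. An unadjusted p under 0.05 was found for 7 genes, all lower, which is 14.6% against 6.5% of all genes tested, where 6.3% were higher. The CGRP libraries lay below all PBS libraries for 6 of the 48, against 9.37% of all genes tested, and above them for 2, against 8.22%. The 7 genes were Gins2, Cdca3, Nusap1, Hmmr, Anln, Stmn1 and Mki67, with log2 fold changes of -0.46 to -0.21. Gins2, a part of the replicative helicase, was at 30.0, 26.9 and 29.1 CPM with PBS and 20.7, 22.5 and 20.5 CPM with CGRP. Its groups did not overlap, and it had the lowest adjusted p of the 48 (log2 fold change -0.41 ± 0.16, adjusted p = 0.257). Mki67 was at 115, 107 and 92.2 CPM with PBS and 67.3, 99.8 and 86.8 CPM with CGRP, which overlapped (log2 fold change -0.31 ± 0.13, adjusted p = 0.306). The 95% intervals of the 48 genes all lay between -0.91 and 0.75. Among the marker genes in neutrophils, 1 of 10 macrophage and 1 of 5 monocyte markers passed as lower with CGRP. Of the 9 mature neutrophil markers 1 passed as higher, and none passed in the other marker lists. Their part in the values of the cell cycle genes was not tested.

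The difference between the cell types was tested directly, as the CGRP effect in macrophages minus that in neutrophils over the 12 libraries. Of the 48 genes, 4 passed the threshold, or 8.33%, against 2.36% of the 10694 genes tested, and all 4 had the lower value in macrophages, as did 1.15% of all genes. These were Ccna2 (-1.33 ± 0.27, adjusted p = 0.00598), Ccne2 (-1.61 ± 0.37, adjusted p = 0.0173), Pcna (-1.02 ± 0.25, adjusted p = 0.0250) and Rrm2 (-1.02 ± 0.27, adjusted p = 0.0443). For the other 8 genes that fell in macrophages the difference did not pass, with adjusted p from 0.0599 for Ccnb1 to 0.264 for Mcm6, so a difference between the cell types was not shown for them. At an unadjusted p under 0.05, 24 of the 48 were lower, or 50%, against 6.46%, and 45 were below 0, against 47.9%. Over the 48 genes the median difference was -0.71, beside 0.020 over all genes tested. Of the 4 genes, Ccna2 alone passed in each of the 12 fits with 1 library fewer, in which between 1 and 11 of the 48 genes passed. The number was 1, or 2.08% of the 48 against 1.35 to 1.89% of all genes, without the first or second PBS or the second CGRP library of macrophages, or without their CGRP replicate 3. It was 8 (2.83% of all genes) without their PBS replicate 3, 11 (2.98% of all genes) without their CGRP replicate 1, and 2 (1.58 to 1.61% of all genes) without PBS replicate 1, PBS replicate 3 or CGRP replicate 1 of neutrophils.

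Between the cell types with PBS, the cell cycle genes were far lower in macrophages. Of the 48 genes, 46 were lower than in neutrophils and 1 was higher, with a median log2 fold change of -2.36 beside -0.030 over all genes. This comparison called 68.5% of all 10186 genes tested, 35.5% lower and 33% higher. The libraries of the cell types did not overlap for 46 genes with macrophages lower, against 36.5% of all genes, and for 1 with macrophages higher, against 34.5%. Summed over the list, neutrophils held 4.35 times the level of macrophages (5051 ± 226 against 1161 ± 161 CPM). By role, the median log2 fold change was -1.51 for the licensing genes, -1.63 for the fork and nucleotide genes, -2.33 for the cyclins, -2.45 for the mitotic kinases and -2.88 for the spindle genes, and all 3 chromosome structure genes were lower. These differences between roles were not tested.

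The 5 largest falls were those of Hmgb2, Cenpf, Cdc20, Anln and Rrm2. Hmgb2 was at 715, 763 and 614 CPM in neutrophils and 32.3, 35.2 and 29.4 CPM in macrophages, a log2 fold change of -4.42 ± 0.14 (adjusted p = 7.6e-15). Cenpf, a kinetochore protein, was at 161, 121 and 110 CPM against 18.3, 12.2 and 6.09 CPM (-3.47 ± 0.27, adjusted p = 2.03e-09). Cdc20, the activator of the anaphase-promoting complex, Anln and Rrm2 followed, with log2 fold changes of -3.25 ± 0.20, -3.24 ± 0.40 and -3.2 ± 0.16. None of these 5 genes overlapped between the cell types. Pcna went the other way, at 90.3, 100 and 82.5 CPM in neutrophils and 210, 237 and 153 CPM in macrophages (1.11 ± 0.15, adjusted p = 2.55e-06). Gins2 was at 28.7 ± 1.58 CPM in neutrophils and 29.6 ± 2.87 CPM in macrophages, which overlapped (log2 fold change 0.05 ± 0.17, 95% interval -0.30 to 0.39).

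**Figure D4:**
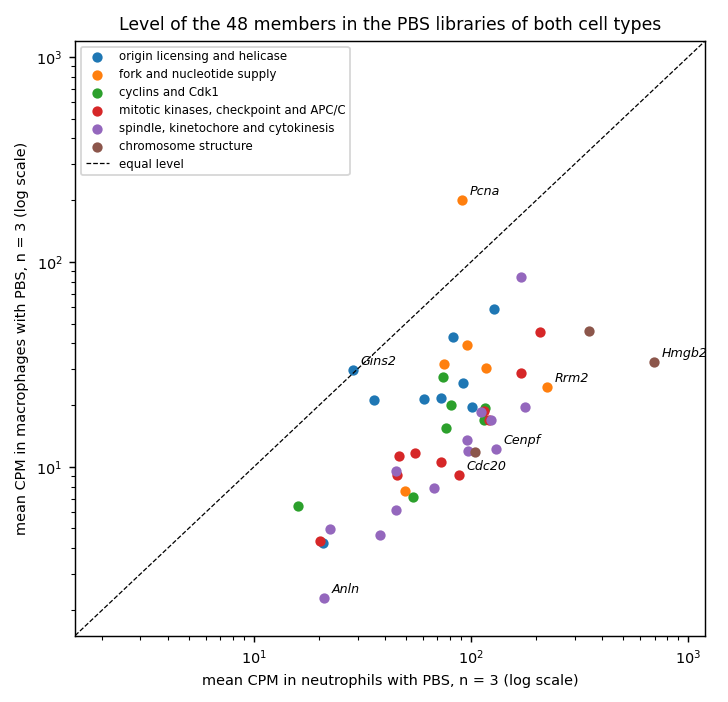
Mean CPM (TMM-scaled, n = 3) of the 48 genes in neutrophils with PBS (x axis) and macrophages with PBS (y axis), both on log scales, coloured by role, with a dashed line at equal levels. All but Pcna, above the line, and Gins2, on it, lie below the line, and Hmgb2 lies farthest from it.

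Cell type, isolation kit, medium and the 3 days of culture differed together in this comparison and cannot be told apart. Markers of other bone marrow cells differed with it as well. The 9 early granulocyte markers were all detected in each neutrophil library and summed to 76117, 93470 and 68724 CPM with PBS, with Ngp the most abundant, against 66.6, 67.2 and 51.2 CPM in macrophages. The 9 erythroid markers, led by Hbb-bs, summed to 6525, 7476 and 5867 CPM in neutrophils and to 23.2, 23.3 and 20.4 CPM in macrophages, where 6 of the 9 were detected and Slc4a1 was at 0. The 6 progenitor markers summed to 56.2, 60.2 and 59.5 CPM in neutrophils and to 2.29, 1.49 and 2.51 CPM in macrophages, where Myb was at 0. Of 8 B cell markers, all 8 were detected in neutrophils, with sums of 150, 155 and 167 CPM, and 2 or 3 in macrophages, with sums of 32.9, 34.1 and 31.9 CPM and Cd79a and Vpreb3 at 0. The 6 T and NK cell markers (means of 123 and 0.70 CPM) and the 6 mast cell, basophil and eosinophil markers (1054 and 8.96 CPM) were lower in macrophages too. The sum of the 5 megakaryocyte markers went the other way, at 167 ± 1.25 CPM in neutrophils and 760 ± 186 CPM in macrophages. Nearly all of it was Pf4 in macrophages (2197 of 2207 counts in the first PBS library). Of the 3 genes tested, 1 was higher in macrophages and 2 were lower. Gp1bb and Gp9 were at 0 in the macrophage libraries with PBS. The sums of the 5 dendritic cell markers overlapped, although of the 2 genes tested 1 passed as lower in macrophages (-2.33) and 1 as higher (1.70). The part of these cells in the difference between the cell types was not tested.

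Other genes of the cell cycle were examined in 3 lists. Of 30 further S phase genes tested in macrophages, 3 were lower with CGRP and none was higher (median log2 fold change -0.32), a share of 10% that is close to the 7.43% of all genes. These were Nasp, a histone chaperone (-0.68 ± 0.19, adjusted p = 0.0428), Chaf1b, a subunit of chromatin assembly factor 1 (-1.13 ± 0.30, adjusted p = 0.0322), and Gins1, a helicase subunit (-1.76 ± 0.44, adjusted p = 0.0222). Gins1 had 22, 35 and 20 counts with PBS and 10, 4 and 4 counts with CGRP. Of 28 further genes of G2 and mitosis, 5 were lower and 1 was higher, or 21.4% (median -0.52). The 5 were Dlgap5, a spindle protein (-2.03 ± 0.53, adjusted p = 0.0274), Cdca2, which directs a phosphatase to chromosomes (-1.91 ± 0.50, adjusted p = 0.0266), Racgap1, a cytokinesis regulator (-1.10 ± 0.27, adjusted p = 0.0202), Cks1b, a Cdk-binding subunit (-0.68 ± 0.20, adjusted p = 0.0495), and Gas2l3, which links microtubules and actin (-0.66 ± 0.19, adjusted p = 0.0419). Cenpa, the centromeric histone variant, was the gene that rose. It was at 82.9, 94.7 and 86.0 CPM with PBS and 169, 129 and 113 CPM with CGRP, without overlap (0.63 ± 0.16, adjusted p = 0.0230). With 1 library fewer, each of these 9 genes passed in 0 (Nasp) to 3 (Gins1 and Cenpa) of 6 fits, and none passed without CGRP replicate 2. None of these genes passed in neutrophils. In both lists a gene can pass the filter on low counts through its PBS libraries alone, which admits genes that are lower with CGRP. A minimum of 10 counts in each macrophage library removed Chaf1b, Gins1, Dlgap5 and Cdca2. Under it Nasp, Racgap1, Cks1b and Gas2l3 passed as lower and Cenpa as higher.

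Regulators of the decision to enter the cycle changed in both directions in macrophages. Of 29 tested, 3 were lower and 2 were higher, or 17.2% against 7.43% of all genes tested, while the median of the list was -0.065. Ccnd1 (ENSMUSG00000070348, chr7:144929931-144939925, minus strand), a D-type cyclin of G1 that responds to growth factors, was at 85.8, 67.5 and 66.3 CPM with PBS and 16.2, 14.7 and 18.1 CPM with CGRP. All CGRP libraries lay far below the PBS libraries (log2 fold change -2.15 ± 0.20, adjusted p = 3.93e-06). In neutrophils Ccnd1 was low in all libraries, 5.48 ± 0.81 CPM with PBS and 6.71 ± 2.12 CPM with CGRP, and the difference between the cell types passed (-2.40 ± 0.38, adjusted p = 0.00065). Cdk6 (ENSMUSG00000040274, chr5:3341485-3531008, plus strand), a kinase partner of the D-type cyclins, was at 45.8, 42.4 and 56.3 CPM with PBS and 22.2, 26.9 and 25.1 CPM with CGRP in macrophages. It fell without overlap (-0.95 ± 0.19, adjusted p = 0.00451).

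Genes for 2 inhibitors of cyclin-dependent kinases moved in the opposite direction. Cdkn1a (ENSMUSG00000023067, chr17:29090976-29100727, plus strand) was at 161, 151 and 186 CPM with PBS and 289, 333 and 335 CPM with CGRP in macrophages. It rose by 0.95 ± 0.13 (adjusted p = 0.000221), and every CGRP library was above every PBS library. In neutrophils Cdkn1a was at 98.1, 124 and 108 CPM with PBS and 147, 145 and 130 CPM with CGRP, also without overlap, and did not pass (0.38 ± 0.10, adjusted p = 0.0502). For Cdkn1a, neutrophil fits passed with the replicate block (adjusted p = 0.0391), library totals (adjusted p = 0.0307), a minimum of 10 counts (adjusted p = 0.0480) and without CGRP replicate 3 (adjusted p = 0.0381). Cdkn1b (ENSMUSG00000003031, chr6:134920401-134925513, plus strand) was at 13.4, 17.0 and 22.2 CPM with PBS and 36.9, 40.5 and 35.1 CPM with CGRP in macrophages. It too rose without overlap (1.14 ± 0.21, adjusted p = 0.00248), while in neutrophils its groups overlapped (0.35 ± 0.14, adjusted p = 0.247). For these 2 genes and Cdk6 the difference between the cell types did not pass (adjusted p = 0.0714, 0.123 and 0.188). Ccnd1, Cdk6, Cdkn1a and Cdkn1b passed in macrophages in each of the 6 fits with 1 library fewer.

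**Figure D5:**
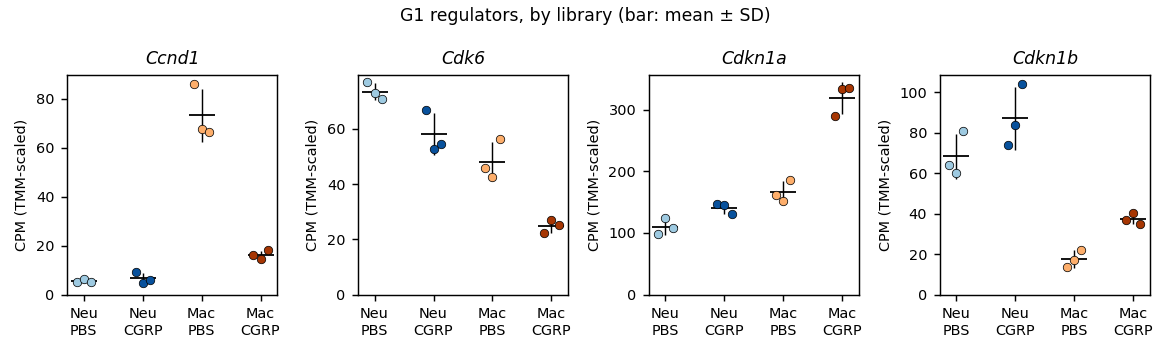
CPM (y axis, TMM-scaled, from 0) of Ccnd1, Cdk6, Cdkn1a and Cdkn1b in each library of neutrophils (Neu) and macrophages (Mac) with PBS or CGRP, with bars for mean ± SD of 3 libraries. In macrophages the CGRP libraries lie below the PBS libraries for Ccnd1 and Cdk6 and above them for Cdkn1a and Cdkn1b.

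The other regulators were less clear. Lin9, a subunit of a complex that controls cell cycle promoters, was lower in macrophages (41, 26 and 14 counts with PBS, 10, 7 and 4 with CGRP, log2 fold change -1.53 ± 0.45, adjusted p = 0.0490). With 1 library fewer, Lin9 passed in 1 of 6 fits. The minimum of 10 counts in each macrophage library removed Lin9. Ccnd2 and Ccnd3, the other D-type cyclins, had log2 fold changes of -0.15 ± 0.36 and 0.28 ± 0.19 in macrophages, and E2f1, a transcription factor of S phase genes, -0.20 ± 0.24, each with an adjusted p over 0.4. In neutrophils E2f1 was at 16.2, 14.1 and 14.7 CPM with PBS and 10.7, 8.46 and 6.98 CPM with CGRP. Although these libraries did not overlap, the adjusted p was 0.114 (log2 fold change -0.75 ± 0.24). Foxm1 and Mybl2, transcription factors of mitotic genes, were too low to be tested in macrophages, with 0 to 6 and 0 to 1 counts a library. Mybl2 was also too low in neutrophils, with 1 to 8 counts a library, and Foxm1 was at 12.5 ± 2.69 CPM with PBS and 10.8 ± 1.97 CPM with CGRP there.

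Some of these genes overlap another gene on the opposite strand. The libraries were primed at the poly(A) tail, and the strand setting of the counting was not given in the sources used here, so reads of such a pair cannot be told apart. Of the 31-base stretches in the last 500 bases of the transcript, 25.5% of those of Ccna2 were also present in Exosc9 and 80.9% of those of Ccne2 in Ints8. Exosc9 had a log2 fold change of -0.27 in macrophages (adjusted p = 0.489), and Ints8 had at most 28 counts in a library. All those of Ccnd1 were shared with Oraov1, at 0.12 (adjusted p = 0.858), and all those of Gins2 with Gse1. All those of Kif20a were shared with Cdc23, all those of Prc1 with Rccd1, and 68.7% of those of Ccnd3 with Bysl. In Mcm7 43.8% were shared, with Cops6 on the opposite strand among the partners. Cops6 had 6688 counts over the 12 libraries against 2206 for Mcm7. In Cdc20 27.4% were shared, with Elovl1 on the opposite strand among the partners, which had 7776 counts over the 12 libraries against 1795 for Cdc20. Some genes shared stretches with genes elsewhere. In Mki67 21.9% were shared with the predicted gene Gm44521, in Cks1b 27.7% with its copy Cks1brt and in Cenpf 26% with Irak1, Ttf1 and Churc1.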

How the data were processed

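Raw gene counts were deposited in 2 tables, 1 for each cell type. The authors made these counts with the nfCore/RNAseq pipeline (version 3.2, with molecular identifiers), STAR and featureCounts on GRCm38; the strand setting was not given in the sources used here. All 12 count columns were matched to samples, and 0 columns belonged to other samples. Of 52636 gene identifiers, 52489 were found in GENCODE M21, from which coordinates were taken. Genes were kept by edgeR's filterByExpr, scaled by TMM and tested with limma-voom (limma 3.58.1, edgeR 4.0.16, R 4.3.3), two-sided, with Benjamini-Hochberg adjustment over all genes of each comparison and a threshold of 0.05. Each 2-group comparison used its own 6 libraries and the interaction all 12. CPM were scaled over the 12 libraries. The reported fit of each comparison was tested on simulated data with known changes. The alternative fits named below were not.

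The 48 genes, the other lists and the tests were chosen with earlier results of these data known. Genes are named if past the threshold with CGRP, most counted in their role group, among the 5 largest rises or falls with PBS, or listed regulators (Cdkn1a, Ccnd1, Ccnd2, Ccnd3, E2f1, Foxm1, Mybl2). Ccnf, Bub1, Cenpe, Cdc6 and Gins2, the genes with an unadjusted p under 0.05 in neutrophils and those not past the threshold named beside a group were added after their values were seen. The alternatives comprised DESeq2 (1.42.0) and its size factors, edgeR's quasi-likelihood test, library totals, other filters on low counts, library quality weights, the replicate number as a block, thinning to the smallest library, a single fit of 12 libraries and leaving out each library.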

Additional observations from a re-analysis of the deposited data

Results flagged for a closer look

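The effect of CGRP differed between the cell types, by the interaction test of limma-voom over the 12 libraries (macrophage minus neutrophil log2 fold change, 3 libraries a group), for 4 of the 48 genes and for 3 of 111 genes of the other lists, or 2.7%, close to the 2.36% of all genes. The 7 differences were all negative. Among the 48 they were -1.33 for Ccna2 (adjusted p = 0.00598), -1.61 for Ccne2 (adjusted p = 0.0173), -1.02 for Pcna (adjusted p = 0.0250) and -1.02 for Rrm2 (adjusted p = 0.0443). Among the other genes they were -2.40 for the cyclin gene Ccnd1 (adjusted p = 0.00065), -2.21 for the spindle gene Dlgap5 (adjusted p = 0.0214) and -1.88 for Cdca2 (adjusted p = 0.0286). Dlgap5 had 20, 27 and 10 counts with PBS and 5, 2 and 3 counts with CGRP in macrophages, and Cdca2 had 29, 23 and 12 against 3, 5 and 5. Ccna2 and Ccnd1 passed in each of the 12 fits with 1 library fewer, Ccne2 and Dlgap5 in 8, Cdca2 in 6, Pcna in 4 and Rrm2 in 2.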

How the results depend on the processing

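In neutrophils 0 of the 48 genes passed under each alternative run. In macrophages every gene of the 48 that passed was lower in each alternative; against 12 in the reported fit, 30 passed with library quality weights (median log2 fold change -0.94) and 22 with a single fit of 12 libraries, while the share over all genes rose from 7.43% to 15% and 9.82%. With 1 library fewer, 2 to 16 passed: 2 without PBS replicate 1, CGRP replicate 2 or CGRP replicate 3. The difference between the cell types called 4 genes as reported, 9 with DESeq2, 2 without a filter on low counts, 16 with quality weights (2.36%, 2.9%, 0.951% and 4.86% of all genes) and 1 to 11 with 1 library fewer. Between the cell types with PBS, 44 to 47 genes passed, beside 42.4 to 72.1% of all genes, and the median ran from -2.54, without macrophage PBS replicate 1, to -2.27 with 1 library fewer. For Ccnd2, macrophage libraries gave the opposite sign without PBS replicate 1 (0.0551) and without CGRP replicate 2 (0.000188), with -0.35 as the other end of the range, and for Hmgb2 without CGRP replicate 3 (0.0039, other end -0.63). Of the 12 genes, Mcm5, Pcna, Ccna2 and Ccnb2 passed in each of 10 alternatives that kept all libraries, and Ccne2 and Mki67 in the 9 that tested them, since the stricter filter on low counts removed both. The cause of these changes was not tested. The median SE in macrophages was largest for the spindle genes (0.37), on low counts.

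Samples of the 2 treatments share replicate numbers. Same-numbered samples did not all deviate together (correlations of 0.04, -0.014 and 0.14 in neutrophils and 0.061, -0.18 and 0.28 in macrophages), and 3 of 6 samples in each cell type correlated best with their own number, so the numbers were not taken as pairs. Taking the replicate number as a block, 29 of the 48 genes passed in macrophages, 0 in neutrophils, 9 in the difference between the cell types and 47 between the cell types with PBS, beside 10.7%, 2.94%, 3.15% and 71.6% of all genes.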
